A study of Mesocricetus auratus with 8 samples.

Results

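Oxidative phosphorylation is the process in which mitochondria pass electrons from NADH and succinate along a chain of protein complexes to oxygen and use the resulting proton gradient to make ATP. Complex I oxidises NADH, complex II oxidises succinate, complexes III and IV carry the electrons on to oxygen, and complex V, the ATP synthase, lets protons flow back through a membrane ring to turn a catalytic head. Most of the subunits are encoded in the nucleus and imported, and proliferating muscle precursors draw on both this pathway and glycolysis. The genes described here were chosen by their symbol in the deposited table, which begins with Nduf or Atp5 or is Sdha, Sdhb, Sdhc or Sdhd. The rule also names gene families of complexes III and IV, which are not described here. The genes analysed were 69 of the 17590 genes with values: 45 of complex I (7 core subunits encoded in the nucleus, 30 accessory subunits and 8 assembly factors), 4 of complex II, Ndufa4 and its paralog Ndufa4l2, and 18 of complex V. NDUFA4 was first described in complex I and is now assigned to complex IV. The other nuclear subunits of complexes III and IV, and the subunits encoded in mitochondrial DNA, were not analysed here.

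RNA-seq was performed on satellite cells (SCs), the stem cells of skeletal muscle, from the hindlimb muscles of the Syrian hamster (Slc:Syrian, genotype WT, sexually mature males). SCs were enriched by preplating and grown on Matrigel in growth medium (GM). The 4 control libraries came from cells kept at 37°C and collected before cold exposure. The 4 cold libraries came from cells plated for 48 h at 37°C, given GM with HEPES buffer for another 24 h at the same temperature, and then moved to 4°C for 24 h in the same medium. In the study's scheme the HEPES step comes before cold exposure, with RNA taken before and after that exposure. The sample labels record no HEPES step for the control libraries. The control titles name day 3, whereas their treatment labels give 3, 4, 5 and 6 days at 37°C for replicates 1 to 4. By the titles, cold cells were sampled later after plating than the controls, and no library was kept at 37°C over the same interval. The study likewise describes RNA taken before and after cold exposure. The treatment labels, read alone, would put some controls at the same time after plating or later. The sources do not settle this conflict. Time in culture and cold cannot be told apart in this comparison. The comparison asks what 24 h at 4°C does to the SC transcriptome. The study describes the libraries as biological replicates, and no source says whether they came from separate animals, so p-values measure the spread between these libraries, which may be technical.

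Depth ranged from 16530747 to 18533801 expected counts per library. The SC and myoblast markers Pax7, Myf5, Myod1, Des, Cdh15, Itga7, Vcam1 and Chrna1 were present in every library, with summed levels of 1924 to 2337 TPM in control and 1819 to 2126 TPM in cold. edgeR called 0 of these 8 without the replicate number as a block and 4 lower with it (Myod1, Cdh15, Itga7 and Chrna1), with blocked log2 fold changes from -0.32 for Cdh15 to -0.13 for Myod1. The fibroblast markers Pdgfra, Col1a1, Dcn, Lum and Thy1 summed to 859 to 1260 TPM in control and 847 to 1215 TPM in cold. The markers of endothelium summed to at most 2.86 TPM, those of Schwann cells to at most 2.77 TPM and those of adipocytes to at most 1.08 TPM. Those of immune cells, nearly all Cd68, summed to 23.6 to 50.6 TPM in control and 23.3 to 52.0 TPM in cold. The other immune markers, Ptprc and Adgre1, were at most 0.03 TPM in any library. Of the 6 markers of differentiating muscle (Myog, Mymk, Myh3, Acta1, Ckm and Tnnt1), 0 were called without the block and 6 lower with it, where 4.07% of all genes were called lower with the block. Their sum ran from 1299 to 2722 TPM in control and from 590.2 to 1168 TPM in cold. The part of both marker lists in the values below was not tested. In bulk RNA, fewer cells of a type and less RNA per cell cannot be told apart. The libraries also differed by replicate number: the first principal component (54.5% of the variance) set replicates 1 and 2 of both groups against replicates 3 and 4, and the second (17.9%) set cold against control.

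By TPM, the genes of the oxidative phosphorylation subunits were among the more abundant transcripts of these cells, unlike the assembly factors and Ndufa4l2. Their levels after 24 h at 4°C stayed close to those before it. Together the 69 genes took 2.25% to 2.49% of all TPM in each library. No gene of the 69 passed an adjusted p under 0.05 in either direction, with or without the replicate block. The differences that could be measured were small: the log2 fold changes of the 68 genes tested ran from -0.14 for Ndufb2 to 0.23 for Ndufaf2. Of the complex V genes, 13 of 18 had log2 fold changes below 0. In complex II, Sdhc and Sdhd were at -0.12 and -0.092 and Sdha and Sdhb near 0, and the genes of complex I were spread on both sides of no change.

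The assembly factors stood below all other members but Ndufa4l2 in level. Levels of different genes are compared here in TPM, which is scaled for transcript length, and the order of levels rests on that scaling. Atp5me, for example, reached 481 TPM from a mean of 726 reads, and Atp5pb 475 TPM from 5427 reads. How exact the scaling is for short transcripts was not tested. The 18 complex V genes had a median level of 603 TPM over all libraries and ran from 324 to 1627 TPM. The 4 complex II genes ran from 268 to 449 TPM, the 7 complex I core genes from 139.9 to 317 TPM and the 30 accessory genes from 128 to 489 TPM. The 8 assembly factors, which help to build complex I and are not part of it, lay lower, at 18.7 to 59.2 TPM. Ndufa4 stood at 1185 TPM, and Ndufa4l2, a paralog known for its induction in hypoxia, at 0.635 TPM. The median gene of the 68 tested stood at percentile 94.98 of abundance among all genes tested. By the ratio of count to TPM, which grows with transcript length, the median gene stood at percentile 2.81 of length.

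**Figure D1:**
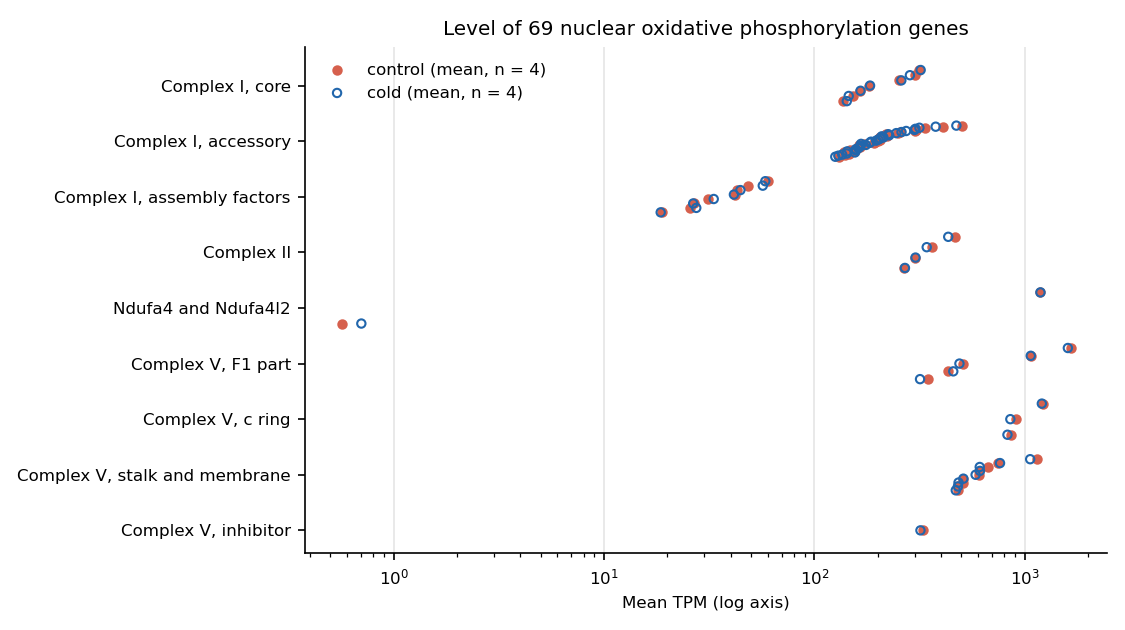
Mean TPM of each of the 69 genes (log axis) by role, with filled points for the 4 control libraries and open points for the 4 cold libraries. The pairs of points lie almost on top of each other in every role, with complex V and Ndufa4 at the top, the assembly factors at the bottom, apart from Ndufa4l2 at under 1 TPM.

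The plot of levels by role shows larger differences between genes than between temperatures. All genes but Ndufa4l2 passed the filter on low counts, and the lowest mean count of a gene tested was 121 reads. edgeR's quasi-likelihood test over 12506 genes called 0 of the 68 in either direction at an adjusted p under 0.05, and 0.072% of all genes lower and 0.0% higher. With a log2 fold change of at least 1 as a further condition, 0 were called, against 0.04% of all genes lower and 0.0% higher. The study reports more genes lower in cold at the same thresholds. In Acta1, Mymk, Myh3 and Tnnt1 every cold library lay below every control, yet this edgeR fit did not call them. Their log2 fold changes were -1.90 (adjusted p = 0.0560), -1.58 (0.254), -1.45 (0.135) and -2.20 (0.246). All of them were called lower with the block. The count of 0 without the block thus does not by itself show that the members were unchanged. Without adjustment, p was under 0.05 for 3 members on the lower side and 0 on the higher side, where the shares over all genes were 4.13% and 2.57%. With the replicate number as a block, 0 members were again called, although 4.07% of all genes passed on the lower side and 1.26% on the higher side. The unadjusted count with the block was 10 lower and 3 higher, against 9.76% and 8.48% of all genes. DESeq2 called 0 members (0.924% of all genes lower and 0.0208% higher), and its unadjusted count was 1 lower and 0 higher (3.14% and 1.45% of all genes). With the block it called 0 members (2.37% and 0.283% of all genes), with an unadjusted count of 7 lower and 0 higher (4.47% and 2.74%). limma on TPM called 0 members (0.029% and 0.0%), with an unadjusted count of 4 lower and 2 higher (3.55% and 2.86%).

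The intervals around the members' changes were narrow. All 68 intervals at the 95% level lay inside a log2 fold change of 0.5 in either direction without the block, as did those of 74.2% of all genes. The lowest bound was -0.44, that of the assembly factor Ndufaf6, and the highest was 0.50, that of Ndufaf2. Ndufaf6 is named here after its value was seen. With the block, 64 of the 68 intervals lay inside 0.25 in either direction, a share that was 61.1% over all genes and 93.3% over genes with a mean of at least 100 TPM. The median size of the change without sign was 0.046 over the 60 members with a mean of at least 100 TPM and 0.049 over all 1543 such genes. The narrow intervals were therefore shared with other abundant genes. Intervals and adjusted p-values given below for single genes are without the block unless stated. With the block, the intervals of Sdhd, Atp5mg, Atp5mk, Ndufb2 and Ndufab1 lay wholly below 0. Those of Ndufb7, Ndufb3 and Ndufaf2 lay wholly above 0. The unadjusted counts with the block stand above beside all genes, and 0 of these members passed adjustment. Expression here is relative to the other transcripts of a library, and a change of all RNA per cell would leave it unaltered.

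**Figure D2:**
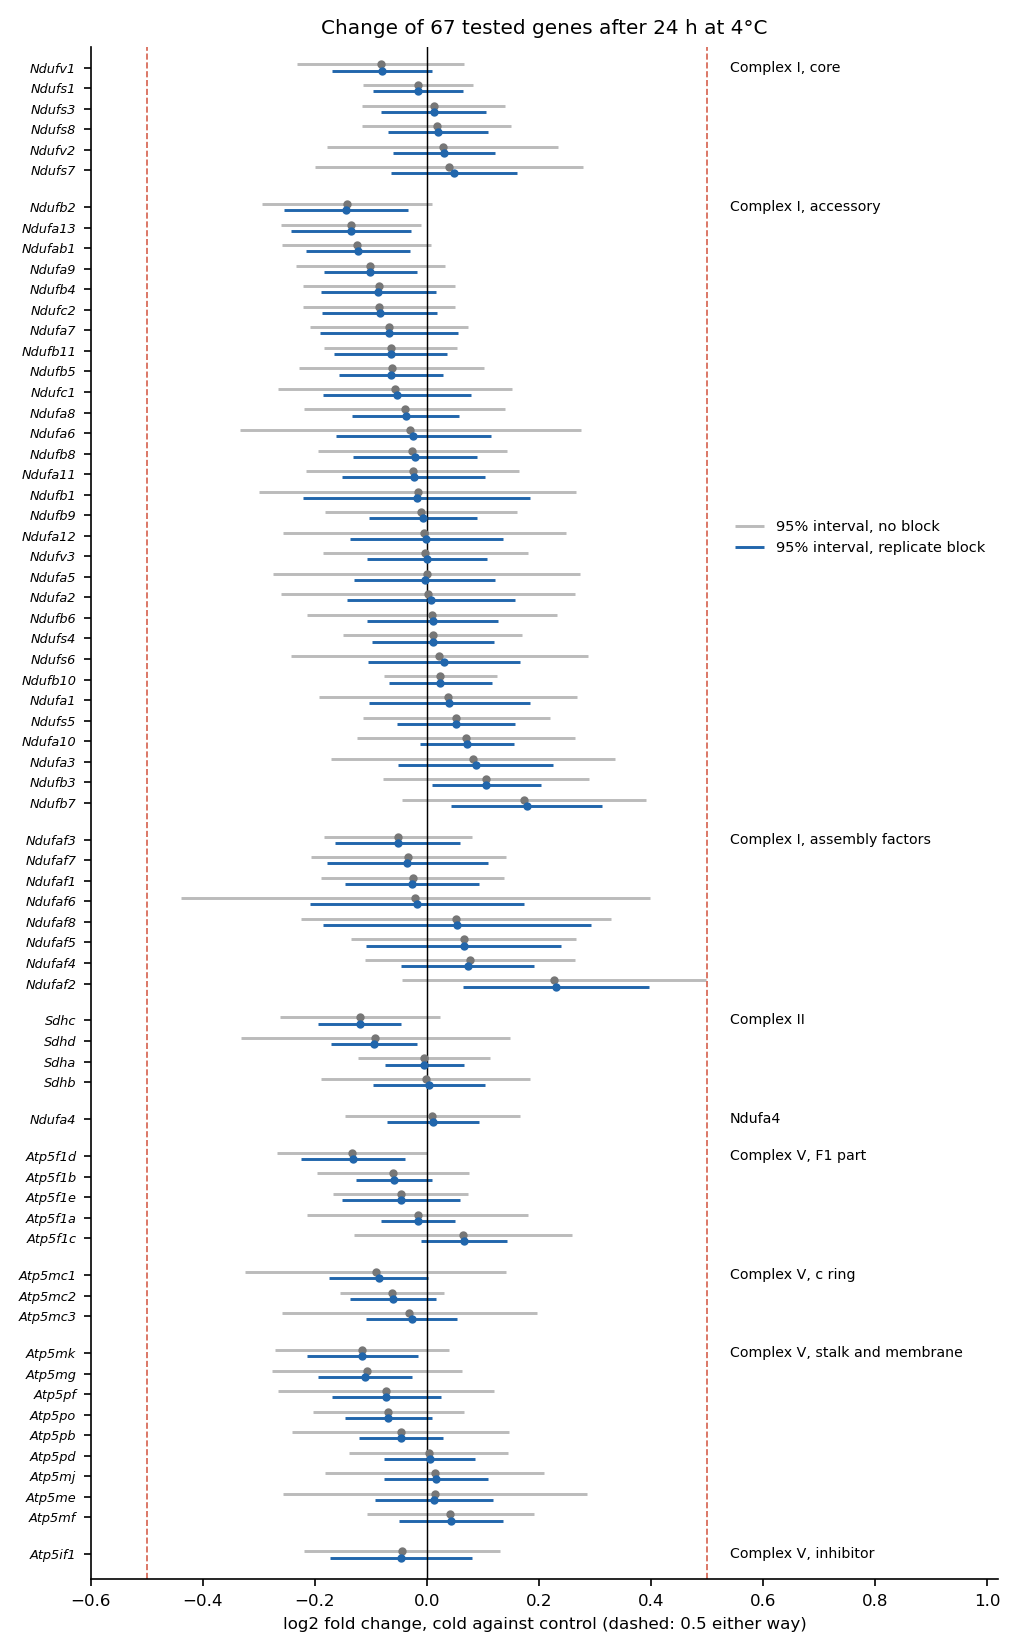
log2 fold change of cold against control for 67 of the 68 genes tested, grouped by role, with 95% intervals from edgeR without the replicate block (grey) and with it (blue). Every interval lies between the dashed lines at 0.5 in either direction, and most of the blue intervals lie within 0.25.

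By direction, 43 of the 68 log2 fold changes were below 0 and 25 above, so that 63.2% were lower, against 47.1% of all genes. The block gave 41 below and 27 above. The median log2 fold change was -0.019, and that of all genes was 0.0071. By complex, the median was -0.010 for complex I (26 lower and 19 higher), -0.049 for complex II (4 and 0; 3 and 1 with the block) and -0.047 for complex V (13 and 5). In the fits without the block, these medians depended on single libraries. Without control replicate 1 the median was 0.0092 over all members and 0.030 for complex I, and without control replicate 4 it was -0.060 and -0.053. For complex II it ran from -0.11 without control replicate 4 to -0.0044 without cold replicate 4, and for complex V from -0.079 without cold replicate 2 to -0.016 without control replicate 1. Within same-numbered pairs 1 to 4, the median log2 TPM ratio was -0.049, -0.023, -0.033 and -0.12 for complex II. It was -0.019, -0.042, -0.0093 and -0.019 for complex V, and -0.0064, -0.039, 0.017 and 0.042 for complex I. In no gene did the TPM of the cold libraries lie wholly apart from that of the controls, whereas 2.41% of all genes were lower and 2.27% higher without overlap. In 10 of the 68 genes, the cold library was the lower of all 4 same-numbered pairs, against 10.5% of all genes. In 5 it was the higher of all 4, against 12.8%.

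The summed level gives each complex a single value per library. For complex V the sum was 13644, 13378, 12835 and 12432 TPM in control replicates 1 to 4 and 13266, 12921, 12530.1 and 12159 TPM in cold replicates 1 to 4. Each cold library lay below the control of the same number, with differences of -2.77%, -3.41%, -2.37% and -2.19%, yet the groups overlapped because replicates 3 and 4 lay below replicates 1 and 2 in both. The means were 13072 ± 544 TPM in control and 12719 ± 479 TPM in cold (SD, n = 4). For complex II the sum was 1456, 1432, 1366 and 1317 TPM in control and 1418, 1392, 1332 and 1243 TPM in cold, lower in cold in 4 of 4 pairs. For complex I it was 8599, 8444, 8285 and 7814 TPM in control and 8338, 8122, 8335 and 7928 TPM in cold, lower in cold in pairs 1 and 2 and higher in pairs 3 and 4. These sums weigh the abundant genes most and were not tested.

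**Figure D3:**
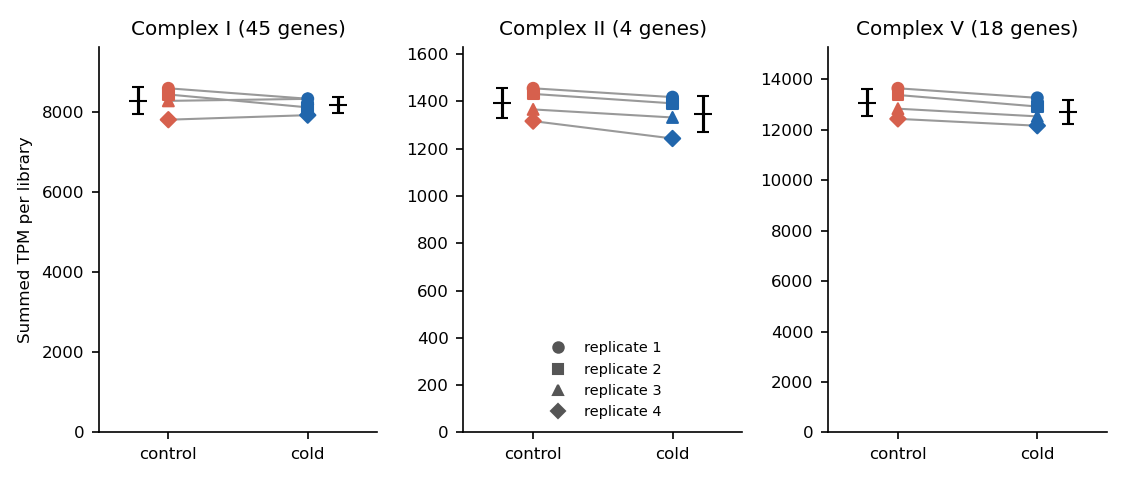
Summed TPM of the genes of complex I (45 genes), complex II (4 genes) and complex V (18 genes) in each library, with lines joining the libraries of the same replicate number and bars giving mean ± SD (n = 4). The lines slope down from control to cold in 4 of 4 pairs for complexes II and V, and cross for complex I.

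Complex I takes electrons from NADH through its core subunits to ubiquinone, and some of these subunits are encoded in mitochondrial DNA. The 7 core genes of the nucleus had a median log2 fold change of 0.012, with 4 above 0 and 3 below. Their summed level was 1502 ± 38.0 TPM in control and 1501 ± 28.5 TPM in cold (SD, n = 4), a difference of -0.065% between means.

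The accessory subunits surround the core and stabilise it. Ndufb4, a membrane arm subunit, was the most abundant of all 45 complex I genes. Its level was 474, 473, 553 and 516 TPM in control replicates 1 to 4 and 454, 492, 509 and 437 TPM in cold replicates 1 to 4. Cold replicates 2 and 3 lay above the lowest controls. The log2 fold change of Ndufb4 was -0.086 (SE 0.060, 95% interval -0.22 to 0.050, adjusted p = 0.958). The lowest log2 fold change of all members belonged to Ndufb2, another membrane arm subunit. Ndufb2 measured 294, 287, 316 and 309.6 TPM in control and 265, 234, 299.9 and 293 TPM in cold. Cold replicates 1 and 2 lay below every control, and replicates 3 and 4 did not. For Ndufb2 the test gave a log2 fold change of -0.14 (SE 0.067, 95% interval -0.29 to 0.0097, adjusted p = 0.797).

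Ndufa13, also named GRIM19 and known to bind STAT3, is a further accessory subunit. It measured 158, 159.8, 156 and 152 TPM in control and 138, 137, 156 and 142 TPM in cold. Cold replicates 1, 2 and 4 lay below every control, and cold replicate 3 lay among the controls. Ndufa13 thus had a log2 fold change of -0.14 (SE 0.056, 95% interval -0.26 to -0.011, adjusted p = 0.692). Ndufab1 is the mitochondrial acyl carrier protein, which serves fatty acid synthesis as well as complex I. It measured 423, 424, 391 and 400.4 TPM in control and 371, 382, 393 and 363 TPM in cold. Only cold replicate 3 reached the control range. This gave Ndufab1 a log2 fold change of -0.13 (SE 0.059, 95% interval -0.26 to 0.0077, adjusted p = 0.797).

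Other accessory genes had log2 fold changes above 0, and 0 of them passed the test. Ndufb7, a subunit on the intermembrane side of the membrane arm, measured 153, 148, 130.1 and 121 TPM in control and 161, 152, 154 and 156 TPM in cold. Each cold library lay above its numbered control, and the cold values were close together while control replicates 1 and 2 stood above control replicates 3 and 4. In the test, Ndufb7 differed by 0.17 on the log2 scale (SE 0.097, 95% interval -0.044 to 0.39, adjusted p = 0.879). Ndufb3, of the membrane arm, measured 171, 169.8, 158 and 152 TPM in control and 189, 180.1, 170.1 and 163 TPM in cold. It too was higher in 4 of 4 pairs with overlapping groups. The log2 fold change of Ndufb3 was 0.11 (SE 0.082, 95% interval -0.078 to 0.29, adjusted p = 0.984). Ndufa10, Ndufa3 and Ndufs5, further accessory subunits, had log2 fold changes of 0.069 (SE 0.086, adjusted p = 0.999), 0.082 (SE 0.113, adjusted p = 0.999) and 0.052 (SE 0.074, adjusted p = 0.999) in edgeR's test. The sign turned for Ndufa3 without control replicate 4 (-0.020) and for Ndufs5 without cold replicate 2 (-0.0070), and Ndufa10 ran from 0.020 without cold replicate 1 to 0.13 without control replicate 1.

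Among the assembly factors, Ndufaf2, a chaperone of late complex I assembly, had the highest log2 fold change of the 68 genes tested by edgeR. It measured 58.4, 46.0, 45.7 and 43.7 TPM in control and 61.3, 57.9, 54.1 and 54.1 TPM in cold. Control replicate 1 stood above 3 of the cold libraries and the other controls stood below all of them. For Ndufaf2 the test gave a log2 fold change of 0.23 (SE 0.12, 95% interval -0.044 to 0.50, adjusted p = 0.857). Without control replicate 1 the log2 fold change was 0.34. Ndufaf4 measured 32.1, 28.6, 30.8 and 33.4 TPM in control and 37.3, 34.2, 30.3 and 31.1 TPM in cold, with cold above control in replicates 1 and 2 and below it in replicates 3 and 4. Ndufaf4 thus had a log2 fold change of 0.076 (SE 0.083, 95% interval -0.11 to 0.26, adjusted p = 0.999). Leaving out single libraries moved it between 0.011 (without cold replicate 1) and 0.12 (without cold replicate 3). The summed level of the 8 assembly factors was 295.6 ± 6.62 TPM in control and 307 ± 9.78 TPM in cold (SD, n = 4).

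Complex II is the succinate dehydrogenase shared with the citric acid cycle. SDHA and SDHB are its flavin and iron-sulfur subunits, and SDHC and SDHD anchor it in the membrane. Sdhc measured 481, 469, 452 and 460.1 TPM in control and 459, 439, 429.5 and 403 TPM in cold. Cold replicate 1 lay within the control range and the others lay below it. This gave Sdhc a log2 fold change of -0.12 (SE 0.064, 95% interval -0.26 to 0.023, adjusted p = 0.857). With the replicate block its unadjusted p was 0.00315, the smallest of all members, and its adjusted p was 0.0562, the value nearest to the threshold. Sdhd measured 386, 379, 347 and 329.6 TPM in control and 378, 370.0, 332 and 288 TPM in cold, lower in cold in 4 of 4 pairs with overlapping groups. In the test, Sdhd differed by -0.092 on the log2 scale (SE 0.11, 95% interval -0.33 to 0.15, adjusted p = 0.999). With the replicate block in edgeR, its SE was 0.036, its 95% interval -0.17 to -0.018 and its adjusted p 0.156.

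The genes of the catalytic subunits of complex II had smaller differences. Sdha measured 259.6, 275, 269.9 and 263 TPM in control and 276, 273, 274 and 255 TPM in cold, with 2 pairs lower and 2 higher. The log2 fold change of Sdha was -0.0052 (SE 0.052, 95% interval -0.12 to 0.11, adjusted p = 0.999). Sdhb measured 329, 309, 297 and 264 TPM in control and 305, 310.2, 297 and 297 TPM in cold, and pair 3 was equal at the precision of the table. For Sdhb the test gave a log2 fold change of -0.0027 (SE 0.083, 95% interval -0.19 to 0.18, adjusted p = 0.999). The signs of both depended on the method: Sdhb was above 0 with the block and with library totals, and both were above 0 in limma. The ratio of Sdhc to Sdha was 1.85, 1.71, 1.67 and 1.75 in control and 1.66, 1.61, 1.57 and 1.58 in cold. The cold ratios lay below all control ratios, a comparison chosen after the values were seen and not tested.

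Ndufa4 was the most abundant gene outside complex V. It measured 1212, 1214, 1243 and 1059.8 TPM in control and 1248, 1188, 1186 and 1126 TPM in cold. The control library of replicate 4 stood below the other 7 libraries. Ndufa4 thus had a log2 fold change of 0.0098 (SE 0.070, 95% interval -0.15 to 0.17, adjusted p = 0.999). Its sign turned without control replicate 4, at -0.042. Ndufa4l2 measured 0.74, 0.63, 0.47 and 0.43 TPM in control and 0.82, 0.66, 0.67 and 0.66 TPM in cold. It was higher in cold in 4 of 4 pairs, as were 12.8% of the genes tested, on 4 to 8 reads a library. Ndufa4l2 was too low for edgeR's test. Its exact permutation p on TPM, without pairing, was 0.20, where 4 against 4 libraries cannot go below 0.0286.

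Complex V makes ATP in its F1 head. ATP5F1B, the beta subunit, carries the catalytic sites, and its gene was the most abundant of all 69. Atp5f1b measured 1724, 1671, 1600.3 and 1608 TPM in control and 1649, 1625, 1582 and 1555 TPM in cold. The cold library was lower in 4 of 4 pairs, and the groups overlapped. This gave Atp5f1b a log2 fold change of -0.060 (SE 0.060, 95% interval -0.20 to 0.075, adjusted p = 0.999). Atp5f1d, the delta subunit of the central stalk, measured 352, 359.7, 349 and 323 TPM in control and 322, 306, 330.4 and 313 TPM in cold. Only cold replicate 3 lay above the lowest control. In the test, Atp5f1d differed by -0.13 on the log2 scale (SE 0.059, 95% interval -0.27 to -0.0007, adjusted p = 0.736). Its unadjusted p was 0.0490 without the block and 0.00753 with it, with an adjusted p of 0.0996 in the blocked fit.

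The gamma subunit, which turns inside the head, is encoded by Atp5f1c. It measured 484, 429, 404 and 409.6 TPM in control and 495, 475, 444 and 414 TPM in cold, higher in cold in 4 of 4 pairs. The log2 fold change of Atp5f1c was 0.064 (SE 0.086, 95% interval -0.13 to 0.26, adjusted p = 0.999). It ran from 0.016 without control replicate 3 to 0.12 without control replicate 1. The beta to gamma ratio of TPM was 3.57, 3.90, 3.96 and 3.92 in control and 3.33, 3.42, 3.56 and 3.75 in cold, lower in cold in 4 of 4 pairs with overlapping groups, as a description without a test.

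The c ring is the rotor that protons turn. Atp5mc1, Atp5mc2 and Atp5mc3 encode the same mature c subunit with different import sequences. Atp5mc3 was the highest, at 1323, 1306, 1209.6 and 1050.1 TPM in control and 1313, 1247, 1144 and 1118 TPM in cold. For Atp5mc3 the test gave a log2 fold change of -0.032 (SE 0.10, 95% interval -0.26 to 0.20, adjusted p = 0.999). Atp5mc1 measured 995, 977, 884 and 773 TPM in control and 919.9, 882, 809.6 and 805 TPM in cold. Atp5mc1 thus had a log2 fold change of -0.092 (SE 0.10, 95% interval -0.32 to 0.14, adjusted p = 0.999). Both lay higher in replicates 1 and 2 than in replicates 3 and 4 of each group, and their SD among controls exceeded the difference between the group means. Atp5mc2 measured 822, 818, 879.5 and 922 TPM in control and 819, 827, 839.6 and 824 TPM in cold, with a control spread of 50.1 TPM and a cold spread of 8.85 TPM (SD, n = 4). This gave Atp5mc2 a log2 fold change of -0.062 (SE 0.041, 95% interval -0.15 to 0.031, adjusted p = 0.945).

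The order of the c ring genes differed between replicates: Atp5mc1 lay above Atp5mc2 in 5 libraries and below it in control replicate 4 and cold replicates 3 and 4. The share of Atp5mc2 in the TPM of the c ring genes was 26.2%, 26.4%, 29.6% and 33.6% in control and 26.8%, 28.0%, 30.1% and 30.0% in cold. Atp5mc1 and Atp5mc2 did not differ beyond their spread in either group, with overlapping ranges. Decimals in an expected count arise when reads are divided between loci, and Atp5mc1 had them in 1 of 8 libraries. Ndufc1 and Atp5mg had such decimals in 3 and 2 libraries, and every other member had whole counts. Reads of a near-identical copy counted at another locus would not show in this way.

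The membrane part and peripheral stalk hold the ring and the head together. Atp5mg, the g subunit at the interface between neighbouring synthases, measured 1185, 1165, 1139 and 1098 TPM in control and 1164, 1069, 1020.1 and 991 TPM in cold. It was lower in cold in 4 of 4 pairs. In the test, Atp5mg differed by -0.11 on the log2 scale (SE 0.075, 95% interval -0.28 to 0.062, adjusted p = 0.958). Atp5mk, a small membrane subunit that helps to keep synthase dimers, measured 701, 659, 621 and 681 TPM in control and 629.6, 612, 623 and 579 TPM in cold. The log2 fold change of Atp5mk was -0.12 (SE 0.069, 95% interval -0.27 to 0.040, adjusted p = 0.894). The other 7 genes of this role had log2 fold changes between -0.073 and 0.042. Atp5if1, which blocks ATP hydrolysis by the synthase when the membrane potential falls, measured 345, 336, 316 and 319 TPM in control and 269, 336, 354 and 318 TPM in cold. Cold replicate 1 was the lowest of the 8 libraries and cold replicate 3 the highest. For Atp5if1 the test gave a log2 fold change of -0.045 (SE 0.078, 95% interval -0.22 to 0.13, adjusted p = 0.999).

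Many of these genes differed by replicate number in the same way in both groups. In 26 of the 68 genes tested (38.2%), both libraries of replicates 1 and 2 lay above both of replicates 3 and 4 in control and again in cold, whereas 12.8% of all genes did so. In 6 genes (8.82%) they lay below in both groups, against 28.5% of all genes. The 26 genes comprised 12 of 18 genes of complex V, among them Atp5f1b, Atp5f1c, Atp5mc1, Atp5mc3 and Atp5mg, 3 of 4 of complex II and 11 of 45 of complex I. The 6 below included Ndufb2. The library of replicate 4 was the lowest of its group in 35 genes in control and in 40 in cold, where it was so for 17.9% and 27.3% of all genes. The library of replicate 1 was the highest in 33 genes in each group, against 17.8% and 21.5% of all genes. What the numbers mark is not stated, apart from the treatment labels of control replicates 1 to 4, which give 3, 4, 5 and 6 days at 37°C. Those labels conflict with the titles. This division, which was read from the libraries themselves, was not tested.

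**Figure D4:**
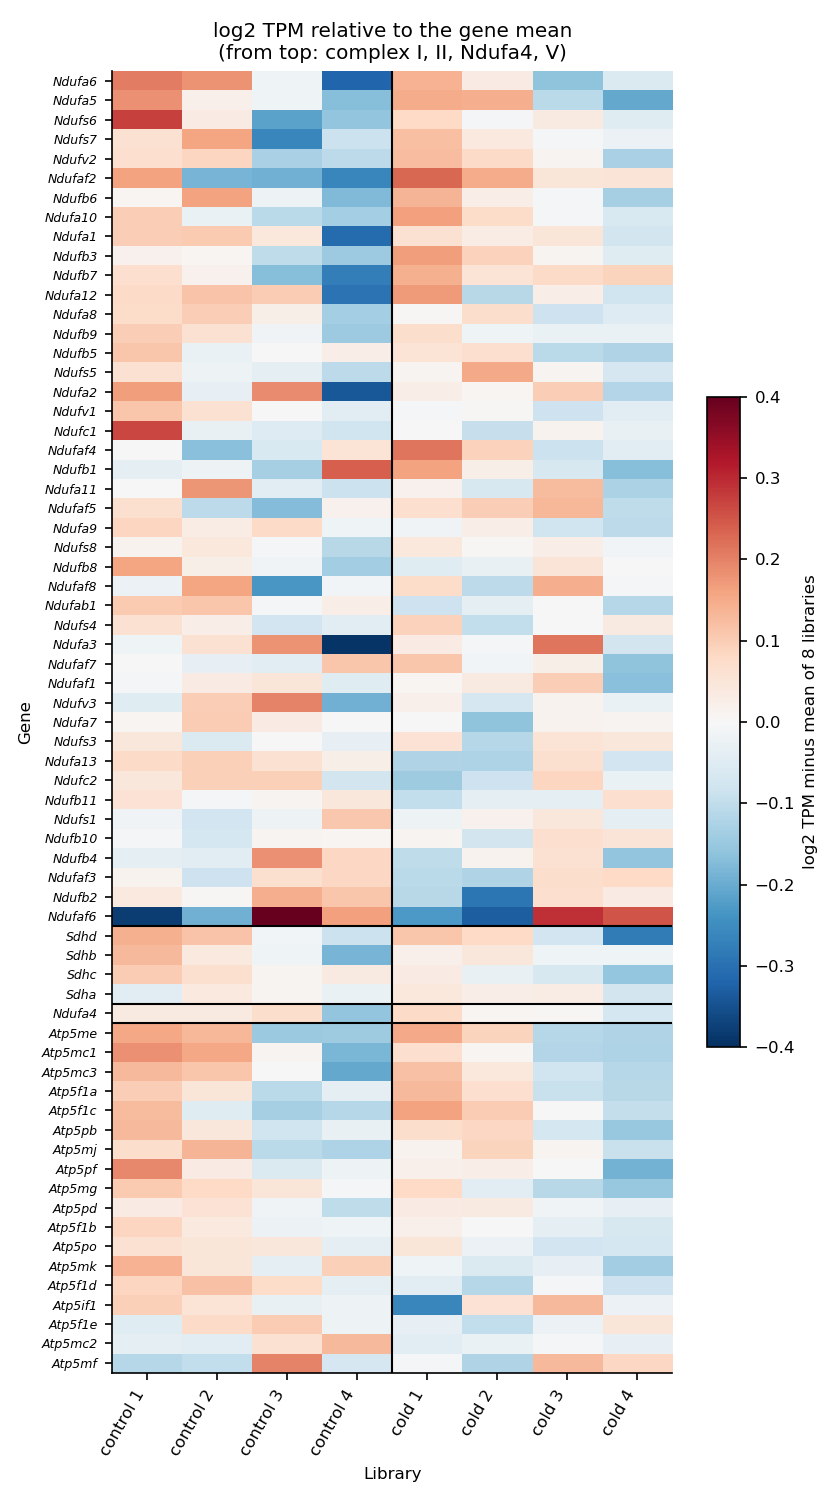
log2 TPM of 67 of the 68 genes tested in each library minus its mean over the 8 libraries, by complex, with genes of a complex ordered by the difference between replicates 1 and 2 and replicates 3 and 4. Red (above the mean) is mostly in replicates 1 and 2 of both groups for complex V and complex II, and blue (below) in replicates 3 and 4, and control replicate 4 is often the lowest control.

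The replicates were therefore also fitted apart. With replicates 1 and 2 only, 7 members passed an adjusted p under 0.05 as lower and 0 as higher, where 6.85% of all genes passed as lower and 4.73% as higher. Among them were Atp5f1d (log2 fold change -0.22), Ndufa13 (-0.24), Ndufab1 (-0.19), Ndufc2 (-0.20), Atp5mc1 (-0.15) and Atp5f1b (-0.11). Ndufc2, an accessory subunit of complex I, is named here after its value was seen. With replicates 3 and 4 only, edgeR called 0 members in either direction, where 0.381% of all genes passed as lower and 0.0159% as higher. The unadjusted count there was 2 lower and 3 higher, where the shares over all genes were 3.35% and 1.7%. There the 6 genes just named had log2 fold changes between -0.066 and 0.020. The difference between the fits was not tested, and each rests on 2 libraries a group. The division was read from these same libraries, so the p-values measure the spread within each part and not that between all libraries. With all libraries, 0 members were called with or without the block.

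Other genes of the pathway, taken from lists outside the rule, were read in the same fits. Of 20 assembly genes for complexes I to V, all tested, 8 had a log2 fold change above 0 and 12 below, with a median of -0.025, and 0 passed the test in either fit. Of 13 regulators of mitochondrial gene expression, 11 were tested, of which 10 lay above 0 (52.9% of all genes did so) and 1 below, with a median of 0.066, and again 0 passed. Nrf1, a transcription factor of nuclear genes for respiratory subunits, measured 19.6, 18.5, 18.8 and 20.4 TPM in control and 20.4, 19.9, 21.8 and 22.3 TPM in cold (log2 fold change 0.11, SE 0.056, adjusted p = 0.841). Gabpa, another such factor, had mean levels of 48.9 ± 1.97 TPM before and 52.6 ± 2.87 TPM after cold exposure (SD, n = 4; adjusted p from edgeR = 0.928). Tfam, which packages and transcribes mitochondrial DNA, had 34.5 ± 1.33 and 36.3 ± 2.35 TPM (SD, n = 4). The coactivator Ppargc1a, a known driver of mitochondrial biogenesis in muscle, lay at 0.03 to 0.19 TPM in every library and was not tested.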

How the data were processed

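RNA-seq was done on polyA RNA of 4 control and 4 cold libraries with paired-end reads. The authors deposited a single table with expected counts per gene, TPM, and normalized counts, a signal that equals the expected count rounded up times 1 factor per library. Expected counts were made by the authors and are not normalized, and between 96.4% and 96.6% of them are whole in each library. The deposited TPM values, also the authors' own, are scaled to the same total in every library. The submitters' processing notes name HISAT and HISAT2, and the genome build and counting program are not given in the sources used here. The normalized counts were not tested.

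After rounding, cold was compared with control by the quasi-likelihood test of edgeR 4.0.16 in R 4.3.3 (filterByExpr, TMM factors), with Benjamini-Hochberg adjustment over all 12506 genes tested. The alternatives were DESeq2 1.42.0, limma 3.58.1 on log2(TPM + 0.1), other scaling and filters, left-out libraries, replicates 1 and 2 or 3 and 4 alone, and the replicate number as a block. A number was taken to pair libraries because the deviations of same-numbered libraries from their group means correlated at 0.609, 0.618, 0.647 and 0.659. Between replicates 1 and 2 the values were 0.591 and 0.569, and between replicates 3 and 4 they were 0.432 and 0.472. All values between replicates 1 or 2 and replicates 3 or 4 were below 0. The correlations thus mainly follow that division, and pairing within replicates 1 and 2 is an assumption. For members, an exact permutation test (two-sided, 70 arrangements) on TPM was run as well. All 69 gene identifiers were found in RefSeq under the same symbol. The fits were tested on simulated counts.

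The members and lists were chosen with earlier results of these data known. Named genes were Ndufa4 and its paralog, the c ring genes, the inhibitor, complex II, the most abundant of each complex, the 6 largest log2 fold changes in each direction and the 8 smallest p-values in each direction with the block. Reads carry no molecular identifiers, so precision from depth covers counting error only. Of the members, 1 is counted in the totals and is not reported by name.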

Additional observations from a re-analysis of the deposited data

Results flagged for a closer look

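In 54 groups of 4 libraries (27 named genes in control and in cold), 4 held a library whose gap to the nearest other library, divided by the range of the group, passed Dixon's 95% critical value. Chance flags about 1 in 20 such groups, or 2.7 here. Ndufa4 stood at 1059.8 TPM in control replicate 4, below the 1212 to 1243 TPM of the other controls. Ndufaf2 stood at 58.4 TPM in control replicate 1, above the 43.7 to 46.0 TPM of the other controls. Sdha stood at 255 TPM in cold replicate 4, below the 273 to 276 TPM of the other cold libraries. Ndufa4l2 stood at 0.82 TPM in cold replicate 1, against 0.66 to 0.67 TPM in the other cold libraries, a level too low for the test. Control replicate 4 and cold replicate 4 were also the libraries in which most members had their lowest value of the group.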

How the results depend on the processing

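The count of members higher at an adjusted p under 0.05, and that with a log2 fold change of at least 1, was 0 under every alternative run. The count lower was 0 under all but replicates 1 and 2 only, where it was 7 and 6.85% of all genes passed. With that subset the median log2 fold change was -0.060 for all members, -0.055 for complex I, -0.089 for complex II and -0.066 for complex V, and with replicates 3 and 4 only it was 0.0038, 0.043, -0.058 and -0.027 in the same order. Leaving out each library in turn moved the median of all members between -0.060 and 0.0092, of complex I between -0.053 and 0.030, of complex II between -0.11 and -0.0044, of Ndufa4 (complex IV) between -0.042 and 0.040, and of complex V between -0.079 and -0.016. The highest medians of all members and of complex I came without control replicate 1 and the lowest without control replicate 4; without control replicate 1, 32 members lay below 0, and without control replicate 4, 53. The replicate block changed no call among the members; it put Sdhb at 0.0034 and moved the unadjusted counts as given above. The sign of Sdhb also turned with library totals (0.0023), DESeq2 with the block (0.0020), limma (0.0162 to 0.0163) and replicates 3 and 4 only (0.091), and that of Sdha with limma (0.0133) and replicates 3 and 4 only (0.0017). With replicates 3 and 4 only, Atp5if1 was at 0.072, Atp5mc3 at 0.0059 and Ndufaf4 at -0.050. With replicates 1 and 2 only, Ndufb4 was at 0.0036. Leaving out single libraries gave signs of both kinds for Atp5if1 (-0.088 to 0.014), Atp5mc3 (-0.11 to 0.016), Ndufa3 (-0.020 to 0.13), Ndufa4 (-0.042 to 0.040), Ndufs5 (-0.0070 to 0.088), Sdha (-0.031 to 0.021) and Sdhb (-0.072 to 0.054). It kept the sign and moved the value by over 1.5 times for Atp5f1b (-0.094 to -0.028), Atp5mc1 (-0.17 to -0.038), Atp5mc2 (-0.077 to -0.039), Atp5mg (-0.17 to -0.070), Ndufb2 (-0.17 to -0.091), Ndufb3 (0.056 to 0.14), Ndufb4 (-0.12 to -0.044), Ndufb7 (0.11 to 0.23) and Sdhd (-0.15 to -0.017), and for Atp5f1c, Ndufa10 and Ndufaf4 as given above. The cause of these moves was not tested. The planned medians of complex III and isoform shares of complex IV were not run.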
